A study of Mus musculus with 116 samples.

Results

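Re-expression of Ku70 was examined in mouse cells that lack both DNA ligase IV and Ku70, at breaks made by the RAG recombinase in the immunoglobulin kappa (Igk) locus. The libraries were chosen by their titles and made up 12 of the 116 samples of the series: 3 libraries of each genotype in clone A1_1 and 3 of each in clone C1. All were v-Abl pro-B cells, B-lineage progenitors transformed with the v-Abl oncogene, and all carried the Emu-Bcl2 transgene. The control cells were labelled Lig4-/- Ku70-/- and are called double-null here. The add-back cells were labelled Lig4-/- Ku70-/- +Ku70, so they still lacked ligase IV. G1 arrest was imposed on all 4 groups by 96 h in 3 µM STI-571, which blocks the v-Abl kinase, and no nuclease was added. For reference, wild-type cells (Emu-Bcl2 alone, clones A and B) and Lig4-/- cells (Emu-Bcl2, clones A1 and C) of the series, arrested the same way, were read in 3 libraries each, with a second set of 3 for clone A1. Clones A1_1 and C1 stand for the lineages A and C, and each genotype within a lineage carried a single clone name. The labels do not say how Ku70 was returned, at what level, or whether replicates were separate cultures. No measurement of Ku70 itself was analysed, and group membership is taken from the labels. P-values measure the spread between these libraries, which may be technical.

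RAG cuts DNA between a V or J coding segment and its flanking recombination signal sequence, which begins with a conserved heptamer. The coding ends are normally opened, trimmed and joined by classical non-homologous end joining, in which the Ku70-Ku80 heterodimer holds the ends and ligase IV seals them. In their absence alternative end joining can act, and it is known for end loss and for short stretches of sequence shared by both ends, called microhomology. Vk segments lie in both directions along the Igk locus, so a Vk-to-Jk join forms by deletion or by inversion according to the segment.

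Each deposited list held 1 row per sequenced join between the coding end of Jk1 (the bait) and a Vk segment (the prey). The 12 lists held 28848 junctions, of which 11095 differed within their library in prey position, strand, bait end or overlap. Libraries of lineage A were normalised by the authors to 167151 raw reads and those of lineage C to 377068. Double-null libraries held 1867 to 7225 junctions. Add-back libraries held 46 to 75 junctions in lineage A and 436 to 612 in lineage C. A share of 3 junctions therefore equals 4.0% to 6.52% of an add-back library in lineage A and 0.490% to 0.688% in lineage C. Reads carry no molecular identifiers, so these limits cover counting error only.

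The Jk1 end and the leading joins are shown because end loss, overlap and orientation are read from them. The Jk1 segment lies at chr6:70722562-70722599 (mm10; segment positions from RefSeq, GRCm38.p6). It is printed in the direction of the bait read, on the minus strand, from wild-type reads of clone A that had lost no Jk1 base. Its last base is the coding end. Capitals mark the 16 bases missing from the Jk1 end that was most frequent in double-null libraries.
Jk1: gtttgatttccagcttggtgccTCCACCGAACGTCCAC

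The most frequent join of each group is given next, with 20 bases on either side and the bait read first. Capitals mark the bases shared by both ends or, in a direct join, the last bait base and the first prey base. Bases lost on the Jk1 side were counted from the coding end along the bait, so a count above 38, the length of Jk1, reaches past Jk1 into the bait sequence next to it.
Double-null A1_1, Igkv15-103: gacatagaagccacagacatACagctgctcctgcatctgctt
Add-back A1_1, Igkv19-93: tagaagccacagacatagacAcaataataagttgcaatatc
Double-null C1, Igkv1-117: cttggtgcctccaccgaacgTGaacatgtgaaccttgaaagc
Add-back C1, Igkv6-32: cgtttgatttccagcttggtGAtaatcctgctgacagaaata
The double-null A1_1 join was direct, had lost 73 bases from the Jk1 end and entered the flank of Igkv15-103 at chr6:68437989-68438008, against the direction used in wild type, in 15 rows of 1 library. The add-back A1_1 join shared 1 base, had lost 69 bases from the Jk1 end and 23 bases of the coding sequence of Igkv19-93 (chr6:68736320-68736339), and filled 4 rows of 1 library, as many as 1 other join of its group. The double-null C1 join was direct, with 4 Jk1 bases and 2 bases of Igkv1-117 lost (chr6:68121804-68121823), and it recurred in all 3 libraries with 44 rows. The add-back C1 join was direct, with 18 Jk1 bases and 11 bases of Igkv6-32 lost (chr6:70074035-70074054), and its 17 rows all came from 1 library. Neither leading add-back join occurred in any double-null list.

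The most frequent joins with at least 2 shared bases were as follows.
Double-null A1_1, Igkv4-80: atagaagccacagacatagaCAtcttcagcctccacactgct
Add-back A1_1, Igkv4-50: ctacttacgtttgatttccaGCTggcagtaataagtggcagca
Double-null C1, Igkv19-93: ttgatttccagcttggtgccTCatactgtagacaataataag
Add-back C1, Igkv12-41: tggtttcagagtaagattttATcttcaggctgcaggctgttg
They had lost 69, 23, 14 and 106 bases from the Jk1 end, respectively, and filled 13, 4, 42 and 16 rows. The double-null A1_1 join was 1 of 2 tied at 13 rows. The prey parts lie at chr6:69016596-69016615, chr6:69700788-69700807, chr6:68736309-68736328 and chr6:69858461-69858480, all on the plus strand within the annotated segments. The Igkv19-93 join sharing TC was present in 2 double-null C1 libraries and also in double-null A1_1 (9 rows) and add-back A1_1 (1 row). The other 3 were each found in 1 library.

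Jk1-to-Vk joins were far fewer in the add-back cells than in the double-null cells of both lineages. Abundance is given as junctions per 100000 raw reads. Double-null A1_1 libraries had 1117, 2045 and 2506, and add-back A1_1 libraries had 27.5, 44.9 and 35.9. Double-null C1 libraries had 1182, 1558 and 1916, and add-back C1 libraries had 116, 162 and 156. In each lineage every add-back library lay far below every double-null library, while the double-null libraries of the 2 lineages overlapped. On the scale of log2 of the junction number plus 0.5, per 100000 reads, means were 10.81 ± 0.61 and 5.16 ± 0.35 in lineage A and 10.57 ± 0.35 and 7.16 ± 0.27 in lineage C (SD, n = 3 libraries). The change was -5.65 ± 0.40 (SE) in lineage A, a 50.1-fold reduction, and -3.41 ± 0.25 in lineage C, a 10.6-fold reduction. The mean change of -4.53 ± 0.24 had an exact permutation p of 0.005 within lineages (two-sided, 400 relabellings, the smallest they can give) and an adjusted p of 0.05 over 15 single-measure tests. Measures are called here at an unadjusted p under 0.05, and each call has its adjusted value beside it. Distinct junctions changed alike, by -4.27 (exact permutation p = 0.005). Wild-type clone A, also normalised to 167151 raw reads, had 28196 to 31752, so both genotypes lay well below wild type. Fewer cells able to join, fewer breaks and fewer joins per break cannot be told apart in these lists.

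**Figure D1:**
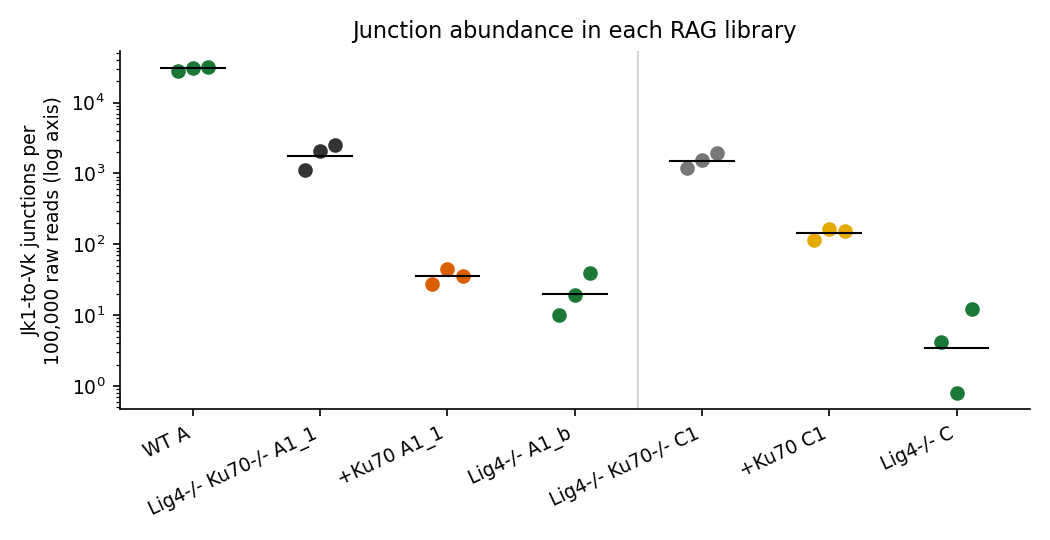
Junctions per 100000 raw reads in each RAG library (points; log axis), with the geometric mean of the 3 libraries as a bar; lineage A and wild-type clone A are left of the grey line and lineage C is right of it. Add-back libraries lie at 27.5 to 44.9 in lineage A and 116 to 162 in lineage C, below all double-null libraries (1117 to 2506).

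The change in abundance was numerically larger in lineage A. Same-numbered library pairs differed by -6.11 to -5.33 in lineage A and by -3.62 to -3.26 in lineage C, and these ranges do not overlap. The lineage difference of 2.24 ± 0.48 (SE) had an exact permutation p of 0.535 when genotype labels were permuted within lineages. Those relabellings also shuffle the much larger change between genotypes. A difference of this size therefore could not reach a small p, and that value does not decide the question. When the 6 pair differences were permuted between lineages the exact p was 0.1, the smallest that 20 relabellings can give. Neither test could pass the threshold, so a difference between the lineages was neither established nor excluded. Same-numbered pairs shared a sequencing run in both lineages, as the read names show, and replicates 2 and 3 of lineage C all came from 1 run. Pairs from the same run had a mean change of -5.65 in lineage A (3 pairs) and -3.42 in lineage C (5 pairs). In lineage A these are the same-numbered pairs, so their mean equals the lineage change by construction. In lineage C the pairs reuse the libraries of replicates 2 and 3. All same-run pairs fell, by -6.11 to -5.33 in lineage A and by -3.62 to -3.26 in lineage C.

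The reduction extended to every kind of join that was counted. The junctions were divided in 24 ways by overlap, end loss, orientation, segment type, position and presence in wild-type lists. In 24 of 24 classes all add-back libraries lay below all double-null libraries in both lineages. Class changes ran from -6.28 to -4.44 in lineage A and from -3.93 to -2.94 in lineage C on the log2 scale. The least reduced class in lineage A was joins with an intact Jk1 end, and in lineage C it was joins with insertions (the changes were -4.44 and -2.94). Joins with 4 or more shared bases were the most reduced class in lineage A (-6.28), but in lineage C their change (-3.07) was smaller than that of all joins. The classes overlap and come from the same libraries, and no test was made between them; in lineage A, 3 rest on 10 or fewer add-back junctions.

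**Figure D2:**
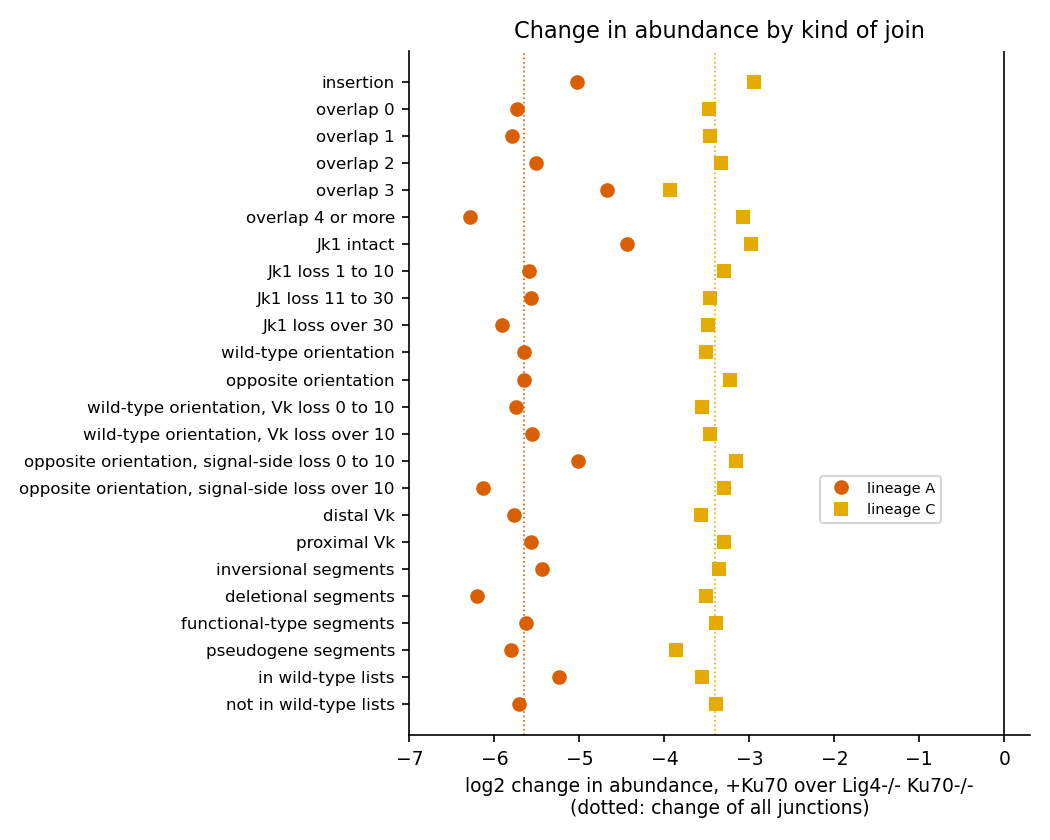
Log2 change in abundance of each class of join, add-back over double-null, in lineage A (circles) and lineage C (squares); each point is a difference between means of 3 libraries and dotted lines mark the change of all junctions. All 48 points lie below 0, between -6.28 and -4.44 in lineage A and between -3.93 and -2.94 in lineage C.

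The share of joins with microhomology differed between genotypes by less than the test could call. An overlap of at least 2 bases was found in 21.3%, 19.4% and 21.5% of junctions in double-null A1_1 and in 23.9%, 22.7% and 23.3% in add-back A1_1. In lineage C the shares were 17.5%, 19.2% and 18.1% in double-null and 23.6%, 16.2% and 17.8% in add-back libraries. The add-back range lay just above the double-null range in lineage A and spanned it in lineage C. The mean difference was 1.76 ± 1.22 percentage points (SE; exact permutation p = 0.185, adjusted p = 0.285). It was 0.467 points when each distinct junction was counted once, and -0.221 with a threshold of 1 base. Joins sharing exactly 3 bases made up 4.63% ± 0.46 and 8.51% ± 2.15 in lineage A and 3.90% ± 0.64 and 2.81% ± 1.19 in lineage C (SD, n = 3), opposite directions. In wild-type clone A 0.779% ± 0.046 (SD, n = 3) of junctions shared 2 or more bases.

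Direct joins, with neither shared nor inserted bases, were the largest class in every one of the 12 libraries. They made up 49.6% ± 2.1 and 46.5% ± 2.9 of junctions in lineage A and 51.8% ± 1.3 and 49.5% ± 5.3 in lineage C, double-null before add-back (SD, n = 3). The mean difference of -2.70 points did not pass the test (exact permutation p = 0.17). Insertions were found in 2.62%, 2.63% and 2.72% of double-null A1_1 junctions and in 8.70%, 0% and 10.0% of add-back A1_1 junctions. With 75 junctions in the library at 0, that value allows a share of up to 4.0%. In lineage C insertions were found in 3.37%, 4.94% and 3.57% of double-null junctions and in 5.50%, 10.6% and 2.55% of add-back junctions. Add-back libraries lay on either side of the double-null ones, and the difference of 2.92 points did not pass the test (exact permutation p = 0.18). Both genotypes differed in this respect from wild-type clone A, in which 61.9% ± 0.4 of junctions had insertions. In wild-type clone B insertions made up 42.9% ± 0.1 and direct joins 47.8% ± 0.1 (SD, n = 3). The share of direct joins in clone B was thus close to that of both genotypes.

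**Figure D3:**
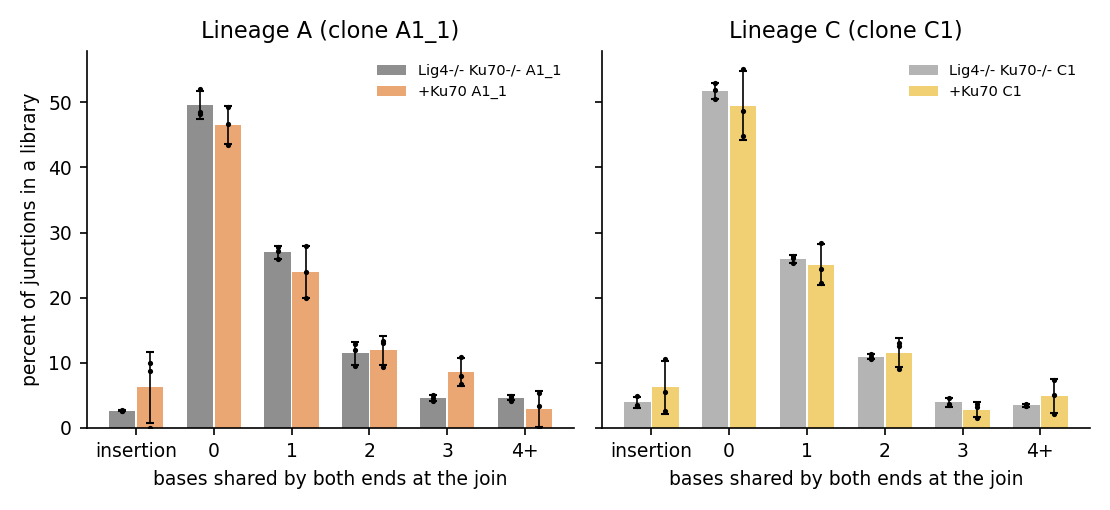
Percent of junctions in a library by the number of bases shared by both ends, or with insertion (bars, mean of 3 libraries; error bars, SD; dots, libraries), for lineage A and lineage C. Direct joins (0 shared bases) are the tallest bars in all 4 groups, at 46.5% to 51.8%, and joins sharing 4 or more bases are at most 4.85%.

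The shared bases themselves were varied. The 1960 double-null A1_1 junctions with at least 2 shared bases used 164 different sequences and the 3218 of double-null C1 used 158. The 42 of add-back A1_1 used 21 and the 307 of add-back C1 used 46. These numbers grow with the number of junctions and were not thinned to a common size, so they do not compare the genotypes. Averaged over the 12 libraries, the dinucleotides AC and GT were the most frequent (8.47% and 8.28% of such joins). AC made up 6.38% ± 0.65 in double-null and 15.6% ± 7.3 in add-back A1_1, and 5.94% ± 2.16 and 5.91% ± 2.14 in lineage C. Its ranges in lineage A did not overlap (5.67% to 6.94% and 9.09% to 23.5%), but the add-back values rest on 42 junctions in all 3 libraries together. GT made up 9.65% ± 0.81 in double-null C1 and 13.3% ± 2.5 in add-back C1, and the 2 ranges did not overlap. TC (4.68% and 2.24%) and AG (3.08% and 0.324%) did not overlap in lineage C either and were lower after add-back. In lineage A both overlapped (TC 4.28% to 5.73% and 0% to 7.14%, AG 1.89% to 6.05% and 0% to 9.09%). These sequences were picked out because their ranges separated. With 3 libraries against 3, that happens by chance in 0.1 of cases for each sequence and lineage. Single sequences were not tested. In lineage A GT made up 7.76% ± 3.32 and 2.38% ± 4.12 (SD, n = 3), on 42 add-back junctions, so its direction was not shared. GCT reached 12.1% in add-back A1_1 only through the Igkv4-50 join shown above, in 1 library.

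Most joins of both genotypes had lost Jk1 sequence. Losses of more than 10 bases had a slightly lower share after add-back, a call that several alternatives ended. The median loss was not smaller in lineage A. Add-back A1_1 shares rest on 46, 75 and 60 junctions, too few to detect differences of a few percent. More than 10 Jk1 bases were missing in 74.3%, 73.9% and 74.1% of double-null A1_1 junctions and in 69.6%, 72.0% and 66.7% of add-back A1_1 junctions. In lineage C the shares were 71.1%, 71.7% and 69.0% in double-null and 65.1%, 68.1% and 69.1% in add-back libraries. All add-back libraries lay below all double-null libraries in lineage A, and 1 of 3 lay within the double-null range in lineage C. The mean difference was -3.91 ± 1.06 percentage points (SE; exact permutation p = 0.01, adjusted p = 0.05). It was -5.51 points over distinct junctions (exact permutation p = 0.005). The call was lost without junctions that also occur in wild-type lists (-1.79 points, exact permutation p = 0.3) and without add-back junctions also found in a double-null library of the same run (-0.711 points, exact permutation p = 0.635). The second filter took joins from the add-back lists only, so the 2 genotypes were no longer filtered alike and that value does not decide whether the difference holds. With the replicate number as a block the exact p was 0.0625, so that fit also ended the call. Same-numbered pairs, which share a sequencing run in both lineages, differed by -7.47 to -1.85 points in lineage A and by -5.92 to 0.117 in lineage C. The median loss went the other way in lineage A, with 19, 19 and 18 bases in double-null and 21.5, 22 and 19.5 in add-back libraries, which did not overlap. In lineage C it was 17, 16 and 16 in double-null and 16 in all add-back libraries. Wild-type clone A had a median of 0, and 0.717% ± 0.221 of junctions had lost more than 10.

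The most frequent Jk1 ends of the double-null cells were also found after add-back. A loss of 16 bases was found in 6.82% ± 0.10 and 7.36% ± 0.64 of double-null junctions in lineages A and C, and in 4.12% ± 2.67 and 8.02% ± 2.71 of add-back junctions. Losses of 4 bases made up 5.11% ± 0.41 and 6.46% ± 1.28 of double-null and 6.72% ± 4.07 and 7.72% ± 4.34 of add-back junctions. Losses of 5 bases made up 5.14% ± 0.39 and 5.67% ± 0.57 of double-null and 7.41% ± 7.01 and 8.68% ± 1.66 of add-back junctions (SD, n = 3). These 3 positions held the highest means over the 12 libraries.

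Joins that kept the whole Jk1 end, as most joins of wild-type clone A did, were rare in both genotypes. They made up 1.98%, 1.17% and 2.08% of double-null A1_1 and 6.52%, 0% and 11.7% of add-back A1_1 junctions, the last from 3, 0 and 7 junctions. In lineage C they made up 2.13%, 1.82% and 1.34% of double-null and 4.82%, 2.29% and 1.02% of add-back junctions. The 2 genotypes overlapped in both lineages, and the difference of 2.63 ± 1.79 points did not pass the test (exact permutation p = 0.19). Wild-type clone A had 52.3% ± 1.0 and wild-type clone B 47.6% ± 0.04. Junctions identical to one in a wild-type list made up 9.30% ± 0.79 and 13.3% ± 8.2 in lineage A and 12.7% ± 2.0 and 11.4% ± 1.6 in lineage C. The highest share, 21.7%, was in add-back A1_1 replicate 3. Of its 48 distinct junctions, 9 also occurred in the wild-type clone A library of the same sequencing run, and 7 and 6 in those of other runs. Add-back A1_1 replicate 1 shared 4, 3 and 4 of 33 with the wild-type clone A libraries, all of other runs. Replicate 2 shared 1 of 45 with the library of its run and 0 with each of the others. The part of such shared junctions in the results was not tested beyond leaving them out.

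**Figure D4:**
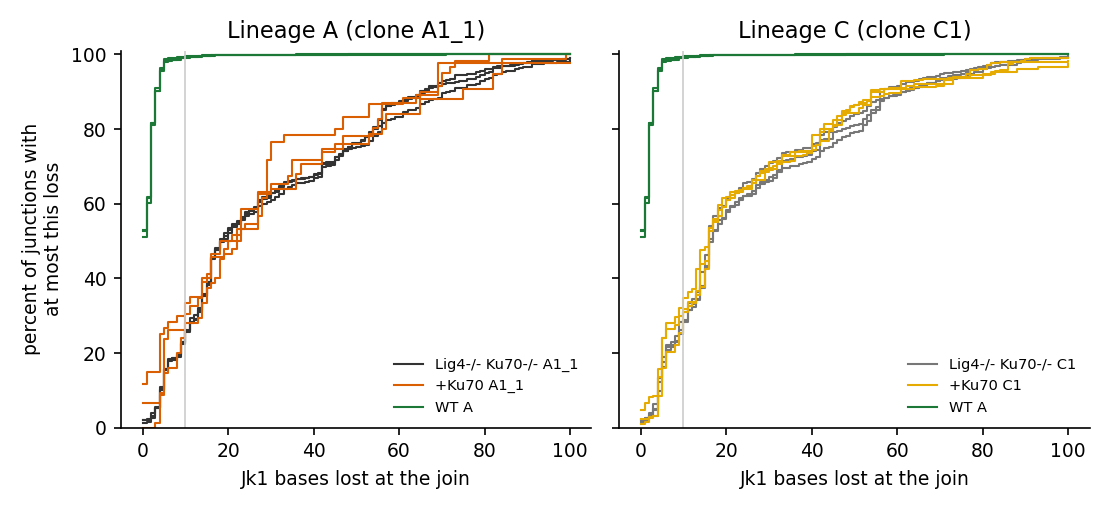
Percent of junctions in a library that had lost at most the number of Jk1 bases on the x axis, 1 line per library, with wild-type clone A for comparison and a grey line at 10 bases. Double-null and add-back lines run close together, with 65.1% to 74.3% of junctions beyond 10 bases, while wild type rises to nearly all junctions before it.

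On the Vk side, the outcome depended on how the joins were counted. Bases lost were measured from the annotated coding end or, for joins against the wild-type direction, from the signal side of the segment. More than 10 bases were missing in 59.8%, 60.6% and 60.3% of double-null A1_1 and in 50.0%, 58.7% and 58.3% of add-back A1_1 junctions. In lineage C the shares were 51.0%, 51.8% and 50.8% in double-null and 58.5%, 48.4% and 47.0% in add-back libraries. Add-back libraries lay below in lineage A and on both sides in lineage C, and the mean difference of -2.23 ± 2.31 points did not pass the test (exact permutation p = 0.425). Over distinct junctions it was -6.02 points (exact permutation p = 0.005), with add-back libraries below double-null libraries in both lineages, by a narrow margin in lineage C (52.9% at most against 53.0% at least). Among joins in the wild-type direction alone it was 2.47 points (exact permutation p = 0.255), of the opposite sign. Median loss in that direction was 13 bases in all double-null A1_1 libraries and 14 to 16 in add-back A1_1. It was 10 to 11 in double-null C1 and 10 to 13 in add-back C1, against 3 in wild-type clone A. The lists hold joins within about 200 bases of a segment (203 at most), so longer losses into a flank were not seen.

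At least 26.1% of the joins in every library ran against the direction that the same segment uses in wild type, with or without Ku70. The wild-type direction was the majority direction of each segment in wild-type clones A and B, which made 80 segments inversional and 55 deletional. In such opposite joins Jk1 is joined to the signal side of the segment, in place of its coding end. They made up 41.1%, 33.1% and 36.7% of double-null A1_1 and 26.1%, 46.7% and 38.3% of add-back A1_1 junctions. In lineage C they made up 31.7%, 33.6% and 28.4% of double-null and 30.3%, 39.2% and 37.2% of add-back junctions. The 2 genotypes overlapped in both lineages, and the difference was 2.21 ± 3.56 points (exact permutation p = 0.53) over rows and -0.0801 over distinct junctions. Wild-type clone A had 0.292% ± 0.078, although the direction was defined from wild type.

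The heptamer was used to check where the annotation places the signal side. The heptamer CACAGTG, searched as printed and in the direction of the read, opened the prey in 104 of 111 opposite joins of double-null A1_1 that had lost no signal-side base (93.7%), and in 120 of 141 of double-null C1 (85.1%). It opened the prey in 6 of 7 such joins of add-back C1 and in none of the 3 of add-back A1_1. Among the remaining opposite joins of the double-null groups it stood at the start of 0.211% and 0.0566%. Because the joins were divided by their position at the annotated border, these shares check the annotation only. Over all opposite joins the heptamer opened the prey in 3.23% in double-null A1_1 and 2.26% in double-null C1. Most opposite joins had lost signal-side bases, with medians of 16 to 17 in double-null A1_1, 10 to 14 in add-back A1_1, 11 to 12 in double-null C1 and 10 to 14.5 in add-back C1. Opposite joins with more than 10 signal-side bases lost made up 23.9% ± 2.1 of double-null and 17.6% ± 7.9 of add-back junctions in lineage A, and 16.4% ± 1.3 and 17.5% ± 0.3 in lineage C.

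Opposite joins were more frequent at inversional than at deletional segments in all 12 libraries. The shares were 47.2% ± 4.1 and 17.6% ± 1.2 in double-null A1_1, 42.5% ± 16.2 and 22.5% ± 9.4 in add-back A1_1, 38.2% ± 4.3 and 16.4% ± 0.9 in double-null C1, and 42.4% ± 7.3 and 19.3% ± 4.6 in add-back C1 (SD, n = 3). Single segments differed. At the inversional Igkv6-32, 331 of 430 double-null A1_1 and 1039 of 1871 double-null C1 junctions were opposite, and 5 of 10 and 158 of 249 were so after add-back. At the deletional Igkv1-135 the opposite joins were 58 of 384 and 173 of 1315 in the double-null groups and 1 of 7 and 18 of 99 in the add-back groups. The inversional Igkv19-93 had shares close to these, with 17.5% and 15.2% in the double-null groups and 23.1% and 22.99% in the add-back groups of lineages A and C.

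The joins spread over most of the Vk region in the double-null cells, and each of the more frequent segments had fewer joins after add-back. Of 162 annotated Vk segments, 116 were joined in at least 1 of the 12 libraries. Double-null A1_1 joined 111 and double-null C1 114, and add-back A1_1 joined 52 and add-back C1 79. The 28 segments with a mean share of at least 1% were tested, and 28 of 28 had fewer joins per 100000 reads in all add-back than in all double-null libraries of both lineages (100% of segments tested; the other joined segments were not tested). They held 63.2% and 70.6% of double-null and 79.6% and 74.1% of add-back junctions in lineages A and C.

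As a share of the library, no segment was called. The exact permutation test of usage with Benjamini-Hochberg adjustment called 0 of 28 segments (0%), with 3 at an unadjusted p under 0.05, and limma called 0 with 2 under 0.05. A single segment cannot pass this test, because the smallest exact p of 0.005 becomes 0.14 over 28 segments. The filter used the mean over all 12 libraries, in which 1 junction of an add-back A1_1 library weighs most, so no direction is read from the tested set as a whole.

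Igkv6-32 (chr6:70074024-70074584), 0.649 Mb from Jk1, had the highest mean share over the 12 libraries and in both groups of lineage C. In lineage A the highest means were those of Igkv11-125 in double-null (4.92%) and Igkv19-93 in add-back libraries (7.57%). Igkv6-32 held 6.16%, 3.71% and 4.49% of double-null A1_1 and 0%, 1.33% and 15.0% of add-back A1_1 junctions. In lineage C it held 9.69%, 12.5% and 9.74% of double-null and 7.57%, 25.0% and 10.7% of add-back junctions. Add-back libraries lay on both sides of the double-null range, and the difference of 2.21 points did not pass the test (exact permutation p = 0.52). Igkv19-93 (chr6:68736297-68736764) held 3.98% ± 0.82 and 7.57% ± 3.16 in lineage A and 6.60% ± 0.81 and 5.42% ± 1.73 in lineage C. Igkv1-135 (chr6:67609745-67610508), a deletional segment 3.11 Mb from Jk1, held 3.96% and 3.33% in lineage A and 7.56% and 6.12% in lineage C.

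The deletional Igkv1-117 (chr6:68121091-68121825) had the smallest p. It held 2.57%, 2.92% and 2.70% of double-null A1_1 and 0%, 1.33% and 0% of add-back A1_1 junctions, a single add-back junction. In lineage C it held 5.81%, 6.67% and 5.97% of double-null and 4.13%, 4.90% and 5.26% of add-back junctions. Add-back libraries lay below double-null libraries in both lineages. The mean difference was -1.84 points (exact permutation p = 0.005, adjusted p = 0.14), and -1.20 over distinct junctions (exact permutation p = 0.09). Igkv11-125 (chr6:67913573-67914052), also deletional, held 4.34%, 4.94% and 5.49% of double-null A1_1 and 0%, 5.33% and 3.33% of add-back A1_1 junctions. It held 0.942%, 1.07% and 0.678% of double-null C1 junctions and was not found among the 1637 junctions of add-back C1, where a count of 0 allows up to 0.490% to 0.688% per library. Its difference was -1.47 points (exact permutation p = 0.045, adjusted p = 0.35).

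The other 7 named segments were inversional. They were Igkv4-51, Igkv8-30, Igkv12-44, Igkv8-21, Igkv4-50, Igkv12-46 and Igkv4-58, and their adjusted p ranged from 0.79 to 0.99. Igkv8-21 had the largest difference among them, 2.55 points, from 2.63% to 7.18% in lineage A and from 1.45% to 2.01% in lineage C, with no junction in add-back A1_1 replicate 3. Over the 116 segments, mean shares of add-back and double-null libraries had a Pearson correlation of 0.802 in lineage A and 0.935 in lineage C. The 2 double-null groups correlated at 0.775 and the 2 add-back groups at 0.624, on few add-back junctions in lineage A.

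**Figure D5:**
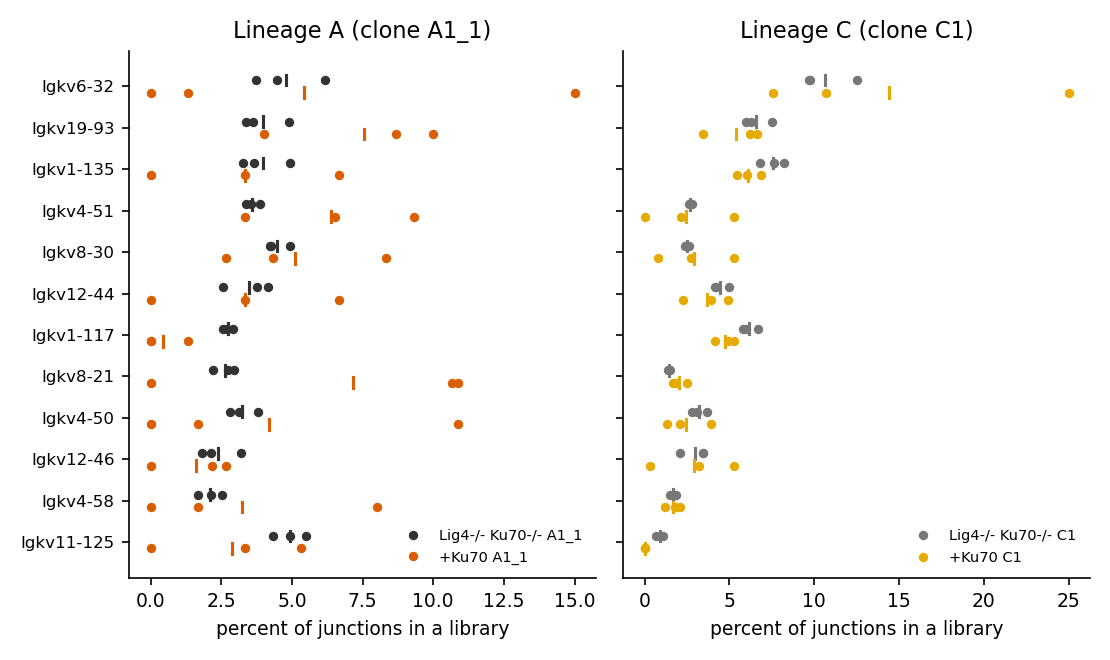
Percent of junctions in a library that used each of the 12 named Vk segments (dots, libraries; vertical bars, means of 3), for lineage A and lineage C, with segments ordered by their mean over the 12 libraries. Add-back dots scatter on both sides of the double-null dots, or within their range, except at Igkv1-117, where they lie below in both lineages, and at Igkv11-125, where they lie below in lineage C and do not exceed the double-null range in lineage A.

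Distance from Jk1 was not called as changed, and the variety of segments was lower after add-back only when repeated rows were counted. Joins to the distal part of the Vk region, farther from Jk1 than its midpoint, made up 39.6% ± 2.2 and 36.1% ± 6.6 in lineage A and 42.9% ± 1.5 and 38.4% ± 5.1 in lineage C (exact permutation p = 0.145 for the difference of -3.95 points). Thinned to 46 junctions, the size of the smallest library, double-null libraries joined an expected 29.99, 30.1 and 31.04 segments in lineage A and add-back libraries 23, 23.6 and 25.8. In lineage C the numbers were 27.96, 26.3 and 27.4 for double-null and 26.1, 23.4 and 26.3 for add-back libraries. The mean difference of -4.10 segments passed the test (exact permutation p = 0.01, adjusted p = 0.05). Thinned to 33 distinct junctions, it was -0.668 (exact permutation p = 0.11). Distinct junctions made up 45.1%, 47.2% and 61.7% of double-null A1_1 rows and 71.7%, 60.0% and 80.0% of add-back A1_1 rows. They made up 41.5%, 19.8% and 33.1% of double-null C1 rows and 38.99%, 19.3% and 39.9% of add-back C1 rows.

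Few joins recurred between libraries. No read name occurred in more than 1 of the 12 libraries. Of the distinct add-back junctions, 0% to 8.89% in lineage A and 8.82% to 19.1% in lineage C were also in a double-null library of the same lineage and run. For add-back C1 replicates 2 and 3 this share pools both double-null libraries of their run. With single same-run libraries the shares of lineage C were 7.63% to 13.2%. Shares with single double-null libraries of another run reached 6.67% in lineage A and 13.5% in lineage C. With single double-null libraries of the other lineage they reached 16.7% for add-back A1_1 and 9.41% for add-back C1. The 3 add-back A1_1 libraries shared no junction with each other. Without the add-back joins found in a same-run double-null library, the mean change in abundance was -4.68 on the log2 scale. This removal was made in the add-back lists only, so it can only lower their counts.

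The joins left after add-back were compared with those of the Lig4-/- cells, which kept their own Ku70. The set titled A1_b stood for lineage A and clone C for lineage C. Lig4-/- A1_b libraries had 10.2, 19.1 and 38.9 junctions per 100000 reads, within or below the add-back range of 27.5 to 44.9. Lig4-/- C libraries had 4.24, 0.796 and 12.2, all below the add-back range of 116 to 162. The first of these Lig4-/- C libraries came from another sequencing run (301) than add-back C1 replicate 1 (382), while the other same-numbered pairs shared a run. The mean difference was 3.06 ± 0.62 on the log2 scale (SE; exact permutation p = 0.015, adjusted p = 0.0563), made of 0.84 in lineage A and 5.28 in lineage C. Lig4-/- A1_b junctions shared at least 2 bases in 88.2%, 53.1% and 53.8%, above all 3 add-back A1_1 libraries, on 17 to 65 junctions per library. In lineage C the Lig4-/- shares were 43.8%, 0% and 17.4%, on 16, 3 and 46 junctions, and spanned the add-back values. The mean difference in microhomology was -21.5 ± 8.7 points (SE; exact permutation p = 0.045, adjusted p = 0.135). It did not pass with Lig4-/- A1 in place of A1_b (-14.8 points, exact permutation p = 0.145). In Lig4-/- A1_b replicate 3, 26 of 65 junctions also occurred in wild-type lists.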

How the data were processed

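Per the labels, LAM-HTGTS (linear amplification of a bait end followed by sequencing) was run from the Jk1 coding end, and the submitters' processing notes name Bowtie2 and the mm10 build. The read filters and versions are not given in the sources used here. The authors deposited 1 list per library with 1 row per junction; its coordinates and base positions were used as deposited values (other), and no column of a sample of another series was present. Read number for normalisation came from the labels. Junctions were counted per 100000 raw reads and tested as log2 of the number plus 0.5. Microhomology was an overlap of at least 2 bases, end loss was over 10 bases, and each prey was given to the nearest RefSeq Vk segment.

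Groups were compared by two-sided exact permutation of libraries within lineages (400 relabellings), with Benjamini-Hochberg adjustment over 15 tests or 28 segments; limma 3.58.1 was the alternative for usage. Intact Jk1 ends and wild-type junctions were added after the data were seen. Replicates were compared by chi-square over segments, and 11 of 12 pairs gave p under 0.05, so none was merged. That test counts rows, many of which repeat a junction, so it can overstate differences between replicates. The remaining pair, add-back A1_1 replicates 1 and 2, was compared over 2 segments only. The usage tests were run on simulated libraries that differed within a group by random counting only, without repeated rows. That setting is simpler than these libraries, so it does not show how the tests perform on them. Software was Python 3.11.15, numpy 2.4.6, pandas 2.3.3, scipy 1.17.1, matplotlib 3.10.9 and R 4.3.3.

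Libraries, segments and measures were chosen with earlier results of these data known. Named were the 12 Vk segments with the highest mean share, any segment called, the 5 highest of each group, and each group's most frequent join and most frequent join with overlap.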

Additional observations from a re-analysis of the deposited data

How the results depend on the processing

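The reduction in abundance kept its direction and its call under every alternative run, and lay between -4.70 and -4.41 (log2) when single libraries were left out. Add-back A1_1 libraries held at most 75 junctions, so in lineage A differences in shares of a few percent were not detectable at this depth. In a check of the pairing, same-numbered libraries had correlations over segments of 0.415, 0.339 and -0.0955 in lineage A and 0.204, 0.628 and 0.519 in lineage C. These values should not be read as the likeness of usage between genotypes. Mean shares of add-back and double-null libraries had a Pearson correlation of 0.802 in lineage A and 0.935 in lineage C. With the replicate number as a block (exact sign flips of 6 pairs, smallest p 0.0312), the calls for Jk1 loss (-3.91, exact p = 0.0625), abundance against Lig4-/- (3.06, exact p = 0.0625) and microhomology against Lig4-/- (-21.5, exact p = 0.125) were lost, and no other call changed. Same-numbered double-null and add-back libraries shared a sequencing run in both lineages, but 1 of the 6 correlations was below 0.1, so the block was kept as an alternative. Against Lig4-/- cells the run was not always shared: Lig4-/- C replicate 1 came from run 301 and add-back C1 replicate 1 from run 382. Where a value changed its call or sign, the cause was not tested.

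The microhomology difference was -0.221 with at least 1 base and -0.176 with at least 4, and its lineage difference was 0.425 and 3.11. Jk1 loss missed the threshold for losses over 5 bases (-4.94). Alternatives chosen after seeing the data also ended that call, at -1.79 without wild-type junctions and -0.711 without add-back joins shared with a same-run double-null library. These shared joins were removed from the add-back lists only, so values without them do not compare lists filtered alike. Without those shared joins Vk loss was 0.384, the distal share -4.53 (past the threshold), the wild-type share -1.32 and the lineage difference of microhomology 0.203. Vk loss was -6.02 over distinct junctions (past the threshold), 2.47 in wild-type orientation alone and 0.490 from the most frequent wild-type position. Over distinct junctions the opposite share was -0.0801, the number of segments -0.668, and usage of Igkv1-135, Igkv8-30 and Igkv4-50 0.434, -0.829 and -0.431. Microhomology against Lig4-/- missed the threshold at 1 base (-21.97), at 4 bases (-12.2), with clone A1 in place of A1_b (-14.8) and without wild-type junctions (-25.4).

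Leaving out each library in turn gave microhomology differences of 0.657 to 2.52 (past the threshold without add-back C1 replicate 2) and insertion differences of 1.82 to 4.48 (past it without add-back A1_1 replicate 2). Direct joins ran from -4.11 to -1.51 (past it without add-back C1 replicate 3), Jk1 loss from -4.55 to -3.22, and Vk loss from -4.03 to -0.811 (past it without add-back C1 replicate 1). The opposite share ran from -0.203 (without add-back A1_1 replicate 2) to 4.94, and the distal share from -5.75 to -2.53 (past it without add-back A1_1 replicate 3 or C1 replicate 1). Intact Jk1 ends ran from 1.23 to 4.15 (past it without add-back A1_1 replicate 2) and the wild-type share from -0.709 (without add-back A1_1 replicate 3) to 3.37. The lineage difference of microhomology ran from -3.87 (past it, without add-back C1 replicate 1) to -0.141. Microhomology against Lig4-/- ran from -26.6 to -15.6 and missed the threshold in 9 of 12 fits. The number of Vk segments called ran from 0 to 3, with 3 called without add-back A1_1 replicate 3. Without a filter on usage, 0 of 116 segments were called, with 26 at an unadjusted exact p under 0.05.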
